A study of Mus musculus with 16 samples.

Results

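The genes described here are 10 genes of pericellular proteolysis, out of 53333 gene rows: the matrix metalloproteinases Mmp2, Mmp3, Mmp11, Mmp14 and Mmp15, the tissue inhibitors of metalloproteinases Timp1, Timp2 and Timp3, and the plasminogen activators Plau and Plat. They were chosen by their membership of this system together with measured values: Mmp15 had been seen to be higher in RBM45 knockout clones than in control clones, and Mmp2 lower in rescue clones than in control clones. In those comparisons the values are therefore a description, with no test. All 10 members were found by Ensembl identifier, all 10 passed the filter on low counts, and together they hold 149 of the 468583 exon bins.

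The cells were mHiPPoE-2, a transformed line of mouse hippocampal neurons (strain label Crl:CFW(SW)-024), grown untreated in medium with serum. Ribodepleted total RNA was sequenced from 16 libraries in 8 groups of 2. WT is the unedited line, and METTL3 KO is 1 Cas9-guided clonal isolate lacking METTL3, the catalytic subunit of the complex that writes N6-methyladenosine (m6A) on RNA. The 2 control clones received Cas9 without a guide RNA. The 2 RBM45 KO clones lack RBM45, an RNA-binding protein that binds m6A. The 2 KO rescue clones are RBM45 KO cells that also carry F-HA-tagged RBM45 altered so that the guide does not match it. Each clone is 1 isolate, the rescue clones carry the knockout as well as the transgene, and no separate culture is named for the libraries of a clone. A p-value between libraries thus measures the spread between replicate libraries and compares lines, not genotypes. The control, RBM45 KO and KO rescue clone numbers used here are names only.

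Matrix metalloproteinases are zinc-dependent enzymes that are made as inactive proenzymes and cut collagens, laminins, cell-surface receptors and one another. TIMP proteins bind their active sites and block them, and TIMP2 also links proMMP2 to MMP14 on the membrane, where MMP14 activates it. The plasminogen activators (urokinase, encoded by Plau, and tissue-type plasminogen activator, encoded by Plat) cut plasminogen to plasmin, which degrades fibrin and activates several of the proenzymes. In the hippocampus these proteases are known for roles in neurite growth, synaptic plasticity and the response to injury.

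Depth ranged from 7193908 to 18751324 gene-body counts, of which the 12 most abundant genes took 53.26% to 70.62%. The targeted genes followed the labels. Mettl3 averaged 3.53 ± 0.255 CPM (normalized counts per 1000000 counts; SD, n = 2) in METTL3 KO and 10.2 ± 2.03 in WT. Rbm45 had 5.7 to 10.8 CPM in the 4 RBM45 KO libraries, 12.8 to 16.7 in the 4 control libraries and 21.1 to 25.9 in the 4 rescue libraries. Of the 12 neuronal markers, Map2 (84.1 CPM) and Tubb3 (1.33 CPM) averaged at least 1 CPM, while Nefl, Dcx and Stmn2 had no count in any library. Of 9 mesenchymal markers found in the table, 7 averaged at least 1 CPM, with Fn1 between 618 and 1938 CPM and Vim between 420 and 1406 CPM. Summed markers of astrocytes, oligodendrocytes and endothelium reached at most 25.4, 2.93 and 3.45 CPM in a library, and those of microglia 39.2 to 61.9 CPM, mostly Cx3cr1, with C1qa at 0. The 2 WT libraries stood apart from each other: in WT replicate 1 Mmp3, Areg, Cxcl1 and Fosb were several times as high as in replicate 2, and where leaving out either of them ended or made a call, or moved a called value by over 1.5 times, the value without it is given.

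Where Mmp3, Mmp14 and Timp1 start is shown because Mmp3 varied most between the groups of all 10 genes, while Mmp14 and Timp1 were high in every library. The sequences are the 250 bases upstream of the RefSeq start on the sense strand (RefSeq, GRCm38.p6), and capitals mark matches to 3 motifs searched on both strands: TGANTCA, the AP-1 element bound by Fos and Jun proteins, TATAAA, and GGGCGG, the GC box. 7 of the 10 members had an entry. The Mmp3 window, chr9:7445572-7445821, held 1 AP-1 match whose first base lies 46 bases before the start and 1 TATAAA 7 bases before it. The Mmp14 window, chr14:54431348-54431597, held 2 adjoining GC boxes, and the Timp1 window, chrX:20869916-20870165, held 1 on the opposite strand.
Mmp3: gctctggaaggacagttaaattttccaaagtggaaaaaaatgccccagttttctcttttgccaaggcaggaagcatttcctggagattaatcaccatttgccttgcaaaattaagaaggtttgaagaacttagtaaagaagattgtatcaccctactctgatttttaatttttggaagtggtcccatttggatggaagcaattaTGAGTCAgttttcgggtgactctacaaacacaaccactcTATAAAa
Mmp14: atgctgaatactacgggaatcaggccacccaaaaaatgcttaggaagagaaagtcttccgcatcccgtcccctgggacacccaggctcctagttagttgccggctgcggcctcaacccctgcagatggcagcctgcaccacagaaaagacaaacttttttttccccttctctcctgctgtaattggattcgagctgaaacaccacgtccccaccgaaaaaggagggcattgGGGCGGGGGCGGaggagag
Timp1: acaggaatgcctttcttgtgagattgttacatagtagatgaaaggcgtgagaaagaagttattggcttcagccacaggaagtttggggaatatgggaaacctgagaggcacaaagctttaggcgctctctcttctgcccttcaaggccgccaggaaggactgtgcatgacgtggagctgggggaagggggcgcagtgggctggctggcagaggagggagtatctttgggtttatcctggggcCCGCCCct
Of the 7 windows, Mmp3's was the only one with a match to the AP-1 or TATAAA letters, and the other 6 (Mmp11, Mmp14, Mmp15, Timp1, Timp2 and Timp3) each held at least 1 GC box. Among 32851 windows of the same length, 6.75% held the AP-1 letters, 12.4% held TATAAA and 32.7% held a GC box. A match is a description of the letters and was not tested as a binding site.

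Per kilobase of exon, the inhibitors were the most abundant members. Exon-bin CPM per kilobase, averaged over the 16 libraries, was 79.5 for Timp1, 63.9 for Timp2, 24.1 for Timp3 and 12.3 for Mmp14, the membrane-anchored activator of MMP2. Mmp3 (stromelysin 1) averaged 7.46, but with a range from 0.174 to 44. Plat averaged 4.53, Mmp11 (stromelysin 3) 2.77, Plau 1.64 and Mmp15, another membrane-anchored enzyme, 0.505, and Mmp2 (gelatinase A) ran from 0 to 6.51. Summed by family, the 3 TIMP genes held 109 to 219 exon CPM per kilobase in each library, and the 5 metalloproteinases 13.2 to 72. Fragments that span several bins were counted in each of them.

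On the gene-body scale (all fragments between a gene's ends, introns included), which is used from here on, the members split by how far their group means spread. The highest group mean exceeded the lowest by 1.4 times for Mmp11, 1.51 for Timp2, 1.53 for Mmp14, 2.13 for Timp3, 2.7 for Timp1 and 3.26 for Plat. For Mmp15 the ratio was 9.43, for Plau 23.4, for Mmp2 42.8 and for Mmp3 125. Mmp11 had 2.88 to 6.23 CPM over the 16 libraries, and each neighbouring pair of its 8 group means overlapped. METTL3 KO held the highest group mean of Mmp2, Mmp3, Mmp14 and Mmp15 and the lowest of Timp1, Timp2 and Plau.

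**Figure D1:**
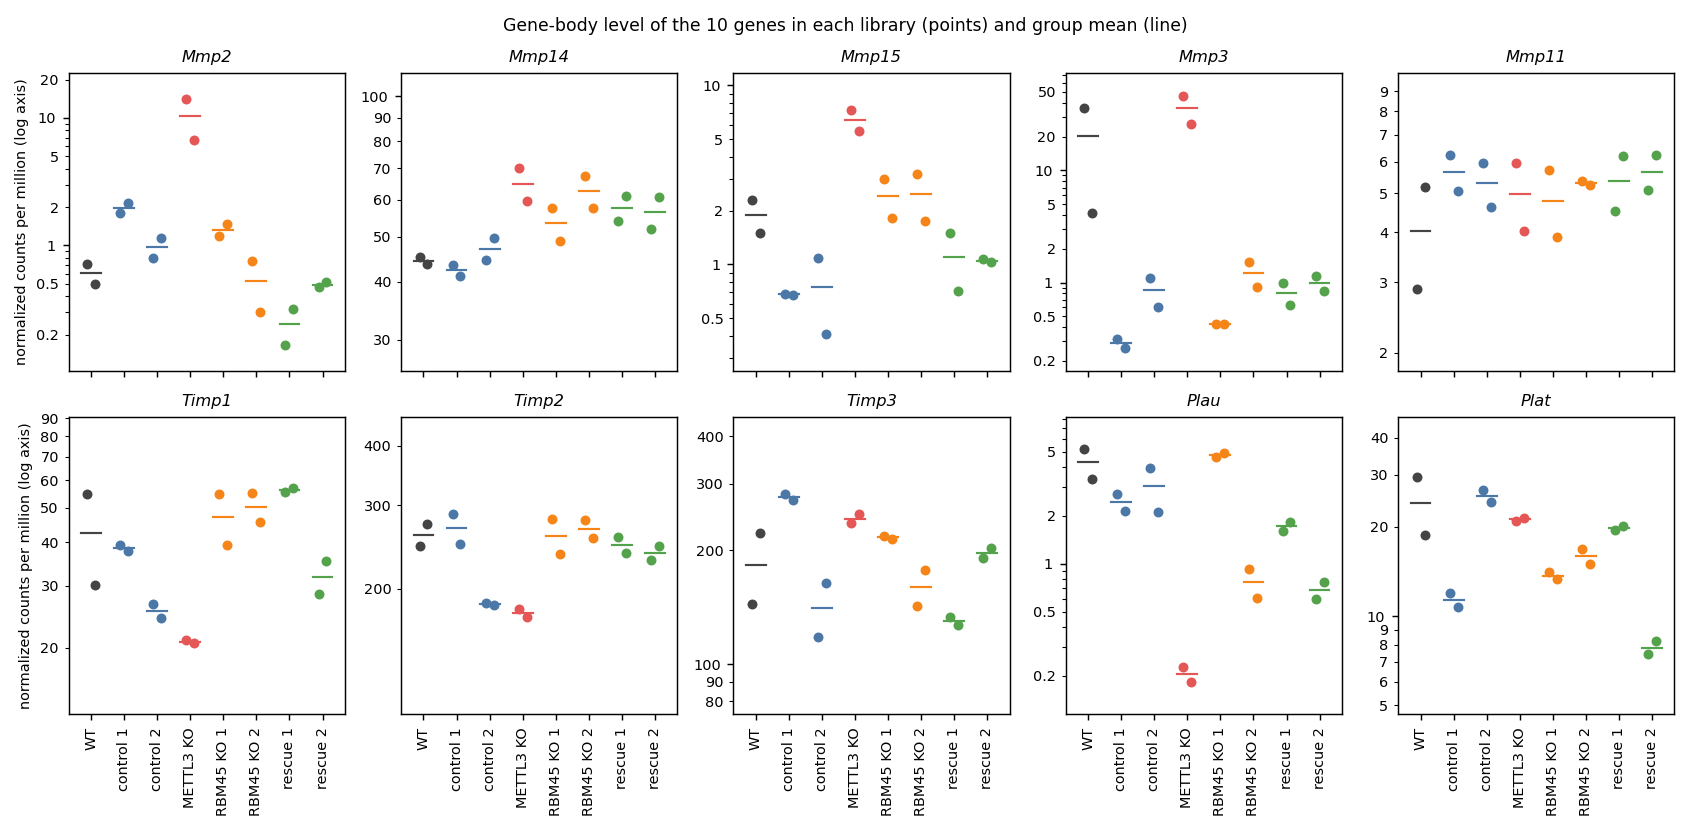
Normalized level in CPM (log axis) of each of the 10 genes in the 16 libraries, 2 points per group with the group mean as a line; control, RBM45 KO and rescue are followed by the clone number. METTL3 KO is highest for Mmp2 (6.71 and 14 CPM) and lowest for Plau (0.183 and 0.225 CPM), and Mmp3 is at 4.19 CPM or more in WT and METTL3 KO and at 1.51 or less in the other 12 libraries.

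The first comparison asked how the METTL3 KO isolate differed from the unedited line. Mmp2, Mmp14 and Mmp15 were higher and Timp1, Timp2 and Plau lower in METTL3 KO, so that 6 of the 10 members passed an adjusted p of 0.05 (edgeR quasi-likelihood test, Benjamini-Hochberg over 16223 genes), 3 in each direction. Over all genes tested in this comparison 22.9% were called. The median log2 fold change of the members was 0.31, against 0.01 for all genes. The 9 mesenchymal markers summed to 1815 and 1818 CPM in METTL3 KO and to 2389 and 2431 in WT, with Lum at 0 in all libraries. The 12 neuronal markers summed to 81 and 89 CPM against 41.9 and 68.4. Nearly all of the neuronal sum was Map2, at 39.7 to 138 CPM over all libraries, while Tubb3 reached at most 2.78. The part of these markers in the member differences was not tested. In such bulk RNA, fewer cells with a transcript and less transcript per cell cannot be told apart.

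The gelatinase gene Mmp2 (chr8:92827291-92853420, plus strand, GRCm38) had 0.72 and 0.499 CPM in the WT libraries and 14 and 6.71 in the METTL3 KO libraries. Those values rest on 5 and 5 counts in WT and on 124 and 110 counts in METTL3 KO, and the groups did not overlap. The log2 fold change was 4.06 (SE 0.45, adjusted p = 1.48e-05), 16.7 times as high. Over 10 alternative settings it ran from 3.48 to 4.52, and each of them kept the call. In METTL3 KO 13.7% and 15.5% as many counts fell in the 12 annotated introns of Mmp2 as in the whole gene body, against 20% and 40% in WT, where those percentages come from 1 and 2 intron counts.

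The membrane-type enzymes moved less. Mmp14 (chr14:54431612-54445364, plus strand) had 45.1 and 43.6 CPM in WT and 70 and 59.6 in METTL3 KO, without overlap, a log2 fold change of 0.54 (SE 0.14, adjusted p = 0.0112). Its adjusted p was 0.115 without METTL3 KO replicate 1 and 0.0522 without WT replicate 2, within a range of 0.00203 to 0.115 over 10 alternatives. Mmp15 (chr8:95352268-95375080, plus strand) had 2.3 and 1.5 CPM in WT and 7.31 and 5.55 in METTL3 KO. It rose by 1.77 on the log2 scale (SE 0.39, adjusted p = 0.0039), and the adjusted p lay between 1.35e-06 and 0.0444 over 10 alternatives. Mmp11 (chr10:75923222-75936496, minus strand), which cuts few matrix proteins and is known from tissue remodelling, had 2.88 and 5.19 CPM in WT and 5.96 and 4.02 in METTL3 KO. Its groups overlapped (log2 fold change 0.21, SE 0.30, adjusted p = 0.649). Chchd10, which overlaps Mmp11 on the other strand, had at most 0.125 CPM in any library.

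Mmp3 (chr9:7445822-7455975, plus strand), whose product also activates other proenzymes, had 36 CPM in WT replicate 1, 4.19 in WT replicate 2, 45.8 in METTL3 KO replicate 1 and 26 in METTL3 KO replicate 2. The WT libraries thus lay on either side of the lower METTL3 KO library. The log2 fold change of 0.89 (SE 0.49, adjusted p = 0.208) was 3.07 without WT replicate 1 (adjusted p = 1.59e-05) and -0.02 without WT replicate 2 (adjusted p = 0.962). Over the 10 alternatives the adjusted p ran from 1.59e-05 to 0.962. Among 11197 genes averaging at least 2 CPM, 5 differed between the WT libraries by as much as Mmp3 or more (2.96 on the log2 scale, after adding 0.5 CPM), Mmp3 included. In replicate 1 against replicate 2, the EGF receptor ligand Areg had 25 and 1.9 CPM, the chemokine Cxcl1 75.3 and 9.89, and the AP-1 gene Fosb 12.4 and 1.9; these 3 were picked after their values were seen. The part of that library difference in the Mmp3 values was not tested.

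Among the inhibitors, Timp2 (chr11:118301069-118355740, minus strand) had 246 and 274 CPM in WT and 181 and 174 in METTL3 KO, without overlap. It fell by 0.55 on the log2 scale (SE 0.13, adjusted p = 0.00655). The adjusted p was 0.0596 without METTL3 KO replicate 2 and ran from 0.000406 to 0.0596 over 10 alternatives. Counted over exons alone, the fall was 0.75 (SE 0.12, adjusted p = 0.000575). In the 8 annotated introns the values went the other way, with 35.8 and 46.9 CPM in WT and 57.9 and 59.9 in METTL3 KO. Intron counts thus came to 14.5% and 17.1% of the gene-body counts in WT and to 32.1% and 34.3% in METTL3 KO, higher than in any of the other 14 libraries, where the highest was 27.1%. Other members also had more intron CPM in METTL3 KO than in WT without overlap: Timp3 had 53.8 to 58.3 against 19 to 42.2, Plat 4.5 to 4.69 against 3.2 to 3.6 and Mmp14 3.83 to 3.96 against 2.1 to 2.59, while Timp1 had less (9.2 to 9.9 against 11.9 to 22.6). As a percentage of gene-body counts, the introns of Timp3 (22.8% to 23.4% against 13.2% to 19%), Plat (21.4% to 21.8% against 12.2% to 17%) and Timp1 (44.5% to 47.1% against 39.4% to 41.4%) were higher in METTL3 KO, and those of Mmp2 lower. Unlike for Timp2, libraries of other lines went higher still: Timp3 reached 23.8% in rescue clone 2, Plat 29.4% in control clone 1 and Timp1 49.7% in control clone 2. Summed over all introns in the table, METTL3 KO held 211234 and 218841 CPM, and WT 237027 and 281463. Set against gene-body counts, the order was the other way. METTL3 KO had 1945130 and 3465291 intron counts to 7193908 and 12313152 gene-body counts. WT had 1955411 and 2373101 to 8179597 and 10285840. The intron share of all gene-body counts was thus also higher in METTL3 KO. The 12 most abundant genes took 56.82% and 53.51% of the gene-body counts in METTL3 KO and 68.45% and 64.55% in WT. Their part in that share was not tested. Cep295nl, which lies within Timp2 on the same strand, had 8.35 to 10.7 CPM in WT and 12.8 to 14.4 in METTL3 KO. These intron values were looked at after the gene-level results and were not tested.

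**Figure D2:**
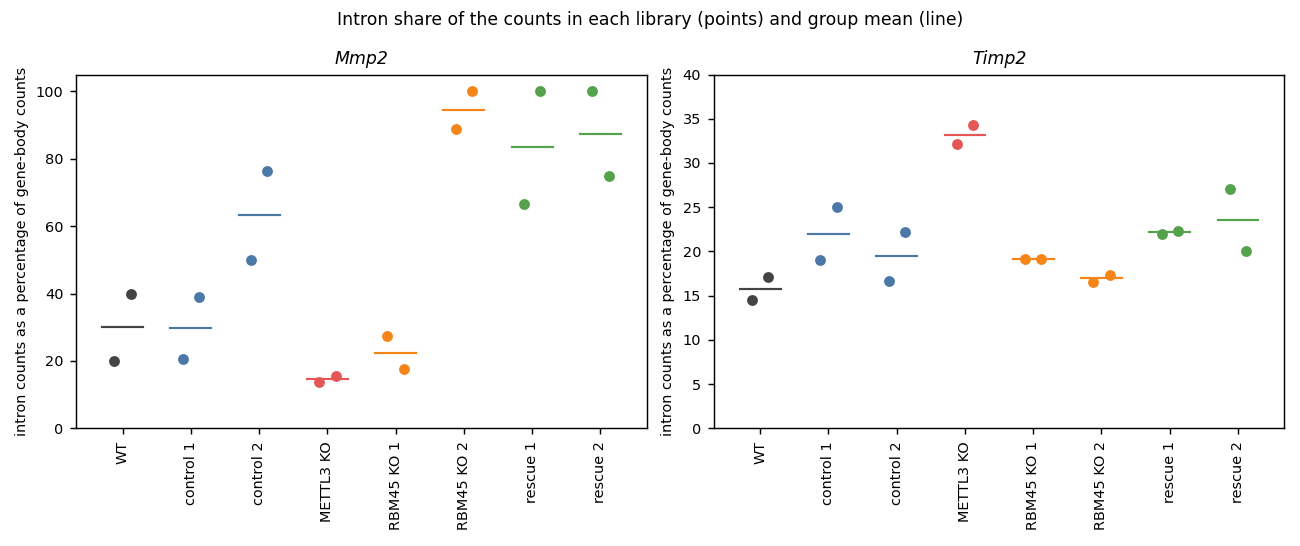
Counts in annotated introns as a percentage of gene-body counts for Mmp2 (left) and Timp2 (right), 2 points per group with the group mean as a line. For Timp2 the METTL3 KO libraries lie at 32.1% and 34.3%, above the other 14. For Mmp2 the share is 66.7% or more in RBM45 KO clone 2 and both rescue clones, and 50% and 76.5% in control clone 2, from few counts.

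Timp1 (chrX:20870166-20874735, plus strand) had 54.6 and 30.2 CPM in WT and 21 and 20.7 in METTL3 KO. It fell by 1.01 on the log2 scale (SE 0.22, adjusted p = 0.00357), and by 0.54 without WT replicate 1, where the adjusted p was 0.0908. Over 10 alternatives the adjusted p ran from 4.49e-07 to 0.0908. Timp3 (chr10:86300372-86349506, plus strand), the inhibitor that stays bound to the matrix, had 144 and 223 CPM in WT and 236 and 249 in METTL3 KO (log2 fold change 0.40, SE 0.18, adjusted p = 0.121). Without WT replicate 2 the Timp3 difference was 0.75 (adjusted p = 0.01), and without WT replicate 1 it was 0.12 (adjusted p = 0.719).

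Both of these genes lie inside a synapsin gene on the opposite strand. Fragments from the stretch that a pair shares could not be assigned to either gene by strand. The library kit does not mark strand. Timp1 lies within Syn1, and the Syn1 count was 0.971 to 1.715 times the Timp1 count over the 16 libraries. Timp3 lies within Syn3, and that ratio was 0.9738 to 1.081. The exon bins of Syn1 outside Timp1 held 734 counts in all, against 8096 for Timp1, and those of Syn3 outside Timp3 held 76, against 41322 for Timp3. In the control clone 2 libraries, where the Syn1 to Timp1 ratio was 1.519 and 1.715, the outside Syn1 bins held 129 and 212 counts, and in the other 14 libraries 5 to 50.

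**Figure D3:**
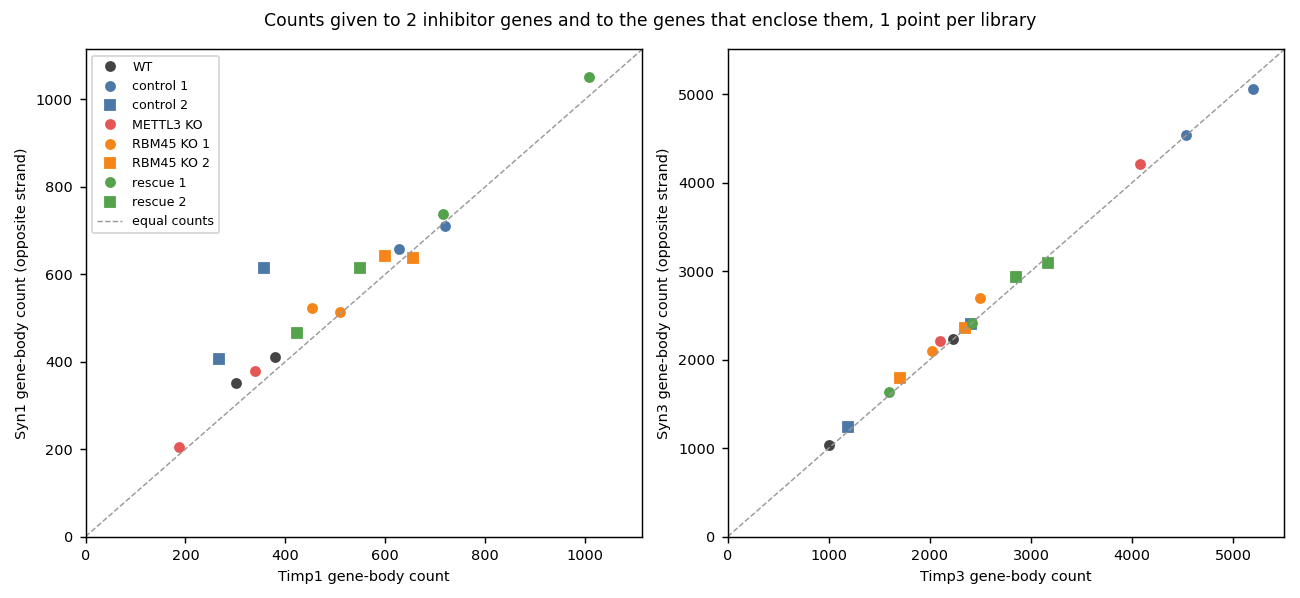
Gene-body counts of Timp1 against Syn1 (left) and of Timp3 against Syn3 (right), 1 point per library, with a dashed line at equal counts; squares are clone 2 and circles clone 1, WT or METTL3 KO. The Timp3 points follow the line (ratios 0.9738 to 1.081), and the 2 control clone 2 libraries lie above it for Timp1 (1.519 and 1.715).

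Of the plasminogen activators, Plau (chr14:20836660-20843385, plus strand) had 5.18 and 3.4 CPM in WT and 0.225 and 0.183 in METTL3 KO. The METTL3 KO values rest on 2 and 3 counts, and the WT values on 36 and 34. Scaled by library size, WT had 20.9 times as many counts (95% exact interval 8.53 to 66.3, counting error only). The log2 fold change was -4.34 (SE 0.50, adjusted p = 1.88e-05), and it ran from -4.64 to -4.04 over 10 alternatives, all past the threshold. Plat (chr8:22757727-22782844, plus strand) had 29.5 and 18.8 CPM in WT and 21 and 21.5 in METTL3 KO, with overlap (log2 fold change -0.16, SE 0.17, adjusted p = 0.516). It was -0.47 without WT replicate 2 (adjusted p = 0.0454) and 0.18 without WT replicate 1 (adjusted p = 0.513).

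**Figure D4:**
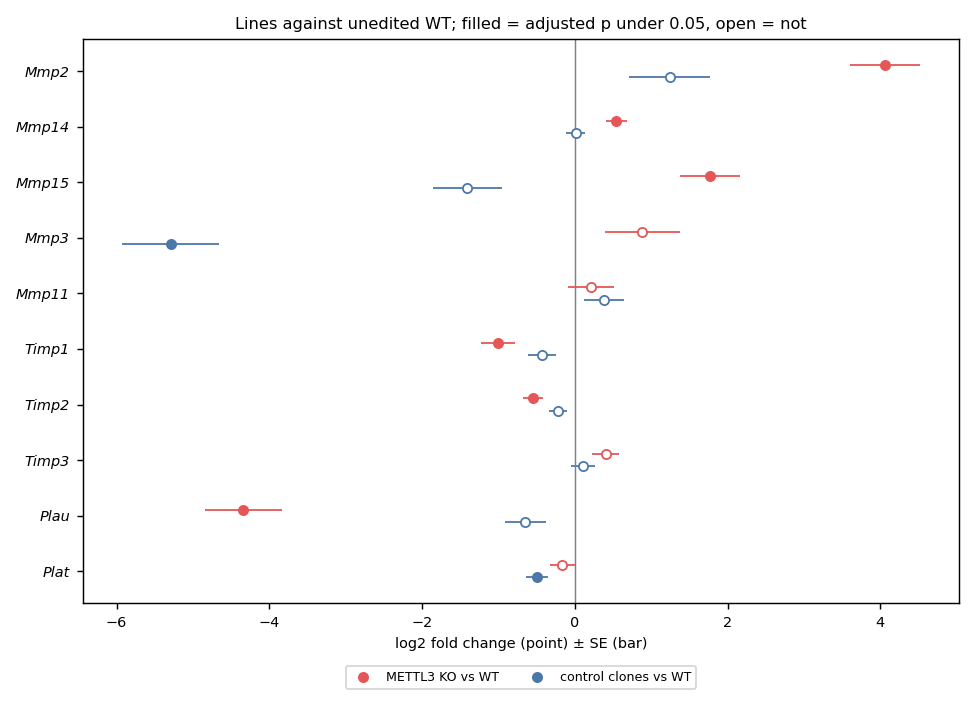
Log2 fold change (points) ± SE (bars) of each gene in METTL3 KO against WT (red) and in the 2 control clones against WT (blue); filled points have an adjusted p under 0.05. Mmp2 lies at 4.06 and Plau at -4.34 in METTL3 KO, and Mmp3 at -5.29 in the control clones; the WT libraries are shared by both comparisons.

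The second comparison set the 2 control clones against the same WT libraries. The 4 control columns carry names that match no label and were assigned to the control clones as the ones left over. Mmp3 was far lower in the control clones and Plat lower, so that 2 of the 10 members were called, against 8.99% of all genes in this comparison. The 12 neuronal markers, nearly all of it Map2, summed to 94.7 to 140 CPM in the control libraries and 41.9 to 68.4 in WT. The 9 mesenchymal markers summed to 2543 to 4195 against 2389 to 2431. The part of these markers in the member differences was not tested. Mmp3 had 0.312 and 0.261 CPM in control clone 1 and 1.09 and 0.611 in control clone 2, from 5, 5, 11 and 9 counts, all below the 2 WT libraries. The log2 fold change was -5.29 (SE 0.64, adjusted p = 3.56e-05). Without WT replicate 1 it was -3.09 (adjusted p = 0.000421) and without WT replicate 2 it was -6.19 (adjusted p = 2.24e-10). The adjusted p was at most 0.000421 over 12 alternatives. Low Mmp3 was shared by the RBM45 KO and rescue clones, whose 8 libraries held 0.43 to 1.51 CPM. None of the 12 control, RBM45 KO and rescue libraries therefore reached the 4.19 CPM of the lower WT library.

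Plat had 12 and 10.7 CPM in control clone 1, but 26.6 and 24.3 in control clone 2, within the WT range. The mean difference of the clones from WT (-0.49 log2, SE 0.15, adjusted p = 0.0429) was -0.14 without WT replicate 1, where the adjusted p was 0.784, and -0.79 without WT replicate 2. Over 12 alternatives the adjusted p ran from 0.00127 to 0.784, and 7 of them lost the call. Timp1 differed by -0.43 (SE 0.18, adjusted p = 0.164), by -0.80 without WT replicate 2 (adjusted p = 0.0048) and by 0.05 without WT replicate 1 (adjusted p = 0.954). Mmp15 had 0.407 to 1.09 CPM in the 4 control libraries, below both WT libraries (log2 fold change -1.41, SE 0.45); since Mmp15 was chosen partly on these control libraries, this is a description. Mmp14 differed from WT by 0.01 (SE 0.12).

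The clones of 1 genotype were then compared with each other, since they share their genotype label. Timp2 and Timp3 were lower and Plat higher in control clone 2 than in control clone 1. Plau was lower in RBM45 KO clone 2 than in RBM45 KO clone 1, and in the rescue genotype clone 2 had less Plat and Timp1 than its counterpart. These are 3, 1 and 2 of the 10 members, against 19.6%, 14.1% and 2.29% of all genes in the control, RBM45 KO and rescue comparisons.

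Plau had 4.62 and 4.92 CPM in RBM45 KO clone 1 (43 and 57 counts) and 0.923 and 0.607 in clone 2 (11 and 8 counts). The difference was -2.64 log2 (SE 0.37, adjusted p = 7.35e-05). The first clone lay above the 4 control libraries (2.11 to 3.98 CPM) and the second below them. Plau had 1.6 and 1.83 CPM in rescue clone 1 and 0.604 and 0.769 in rescue clone 2 (log2 difference -1.29, SE 0.40, adjusted p = 0.124).

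Plat was 2.24 times as high in control clone 2 as in control clone 1 (adjusted p = 7.32e-05). In the rescue clones the order of the clone names was the other way, with 19.6 and 20.1 CPM in clone 1 and 7.44 and 8.21 in clone 2 (log2 difference -1.34, SE 0.17, adjusted p = 0.000223). The 4 control libraries ran from 10.7 to 26.6 CPM, which holds rescue clone 1 but not rescue clone 2. In the RBM45 KO clones Plat had 14.1 and 13.3 CPM in clone 1 and 16.9 and 15 in clone 2 (adjusted p = 0.482).

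Timp3 had 282 and 271 CPM in control clone 1 and 118 and 164 in control clone 2, a difference of -0.97 log2 (SE 0.18, adjusted p = 0.000972). Timp2 had 288 and 248 CPM in the first and 187 and 185 in the second (-0.53 log2, SE 0.13, adjusted p = 0.00854). Without control clone 1 replicate 1 its adjusted p was 0.101, the highest of 10 alternatives. Timp1 had 55.6 and 56.8 CPM in rescue clone 1 and 28.4 and 35.3 in rescue clone 2 (-0.82 log2, SE 0.21, adjusted p = 0.0433). That call was lost when any 1 of the 4 rescue libraries was left out, with adjusted p-values up to 0.47. Over 10 alternatives the lowest was 6.92e-05.

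Mmp2 stood out on the exon scale. Its exon bins held 17 and 22 counts in RBM45 KO clone 1 and 4 and 1 in RBM45 KO clone 2, while the gene-body counts were 11 and 17 against 9 and 4. On gene bodies the log2 difference was -1.35 (SE 0.56, adjusted p = 0.133), and on exons alone -3.15 (SE 0.69, adjusted p = 0.00389). Over 10 alternatives the adjusted p ran from 0.00389 to 0.561. In rescue clone 1 the exon bins held 2 and 0 counts and in rescue clone 2 they held 1 and 3, against 39, 44, 7 and 10 in the control libraries and 195 and 170 in METTL3 KO. Intron counts made up 66.7% to 100% of the Mmp2 gene-body counts in RBM45 KO clone 2 and the rescue clones, and 17.6% and 27.3% in RBM45 KO clone 1. The control clones differed too, with 20.7% and 39% in clone 1 and 50% and 76.5% in clone 2, the latter from 8 and 17 gene-body counts. At 4 to 9 gene-body counts in RBM45 KO clone 2 and 3 to 8 in the rescue clones, those percentages have wide counting error.

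**Figure D5:**
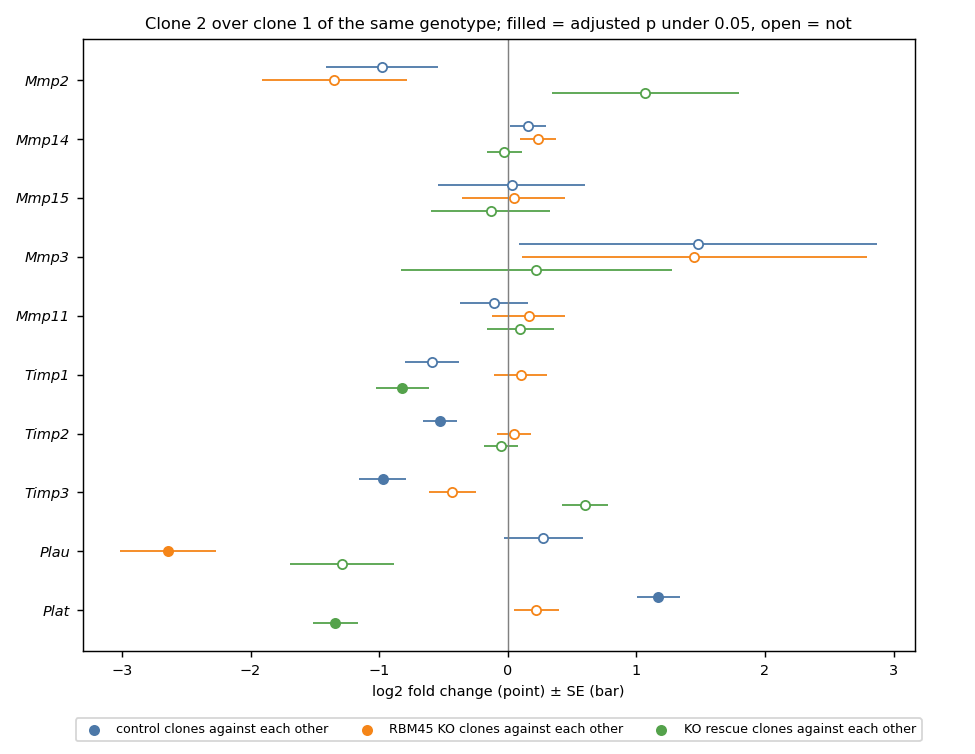
Log2 fold change (points) ± SE (bars) of clone 2 over clone 1 within the control (blue), RBM45 KO (orange) and KO rescue (green) genotypes; filled points have an adjusted p under 0.05. The filled points are Timp2, Timp3 and Plat in control, Plau in RBM45 KO, and Timp1 and Plat in KO rescue, and Plat lies at 1.17 in control and -1.34 in KO rescue.

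The last comparisons took the clone as the unit, with the counts of its 2 libraries summed, and asked what differed with loss of RBM45 and with its return. No gene was called in any of the 3 (edgeR, 16867 genes). The share called is 0% for RBM45 KO against control, 0% for KO rescue against RBM45 KO and 0% for KO rescue against control, and the smallest adjusted p-values were 0.754, 0.662 and 0.276. At an unadjusted p under 0.05 there were 983, 1239 and 2620 genes, and DESeq2 called 4, 38 and 456, none of them a member. With 2 clones against 2, an exact permutation test cannot go below p = 0.333.

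In RBM45 KO against control, a comparison by which Mmp15 was chosen, Mmp15 had 3.01, 1.81, 3.19 and 1.74 CPM in the 4 RBM45 KO libraries and 0.685, 0.679, 1.09 and 0.407 in the 4 control libraries. The clone means were 2.41 and 2.47 CPM in RBM45 KO and 0.682 and 0.75 in control, a log2 difference of 1.80 (SE 0.29). WT, at 2.3 and 1.5 CPM, overlapped the RBM45 KO libraries. Mmp14 had 49 to 67.4 CPM in RBM45 KO and 41.2 to 49.6 in control (0.36 log2, SE 0.15). Timp1 had 39.2 to 55 CPM in RBM45 KO and 24.3 to 39.1 in control (0.60 log2, SE 0.31). For Mmp15 and Timp1, 2 of the 10 members, the libraries of the genotypes did not overlap. This held for 6.78% of all genes in this comparison. Mmp15 was chosen by this comparison, so its lack of overlap was fixed in advance and only that of Timp1 was not. The other members differed by -0.71 (Mmp2) to 0.63 (Mmp3) on the log2 scale, and Plau by 0.06 (SE 0.81), since its KO clones lay on either side of the controls.

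In KO rescue against RBM45 KO, Mmp15 was lower, with 1.49, 0.715, 1.07 and 1.03 CPM in the rescue libraries, below all 4 RBM45 KO libraries. The log2 difference was -1.12 (SE 0.28), a description, since the comparison shares its RBM45 KO libraries with the one that chose Mmp15. It was the 1 member of 10 without overlap, against 15% of all genes. Mmp2 differed by -1.36 (SE 0.66), or by -3.22 (SE 1.25) on exons alone, and Plau by -1.22 (SE 0.84), and the other 7 members by -0.22 to 0.13. The Mmp2 difference is a description too, since the comparison shares its rescue libraries with the one that chose Mmp2.

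In KO rescue against control, a comparison by which Mmp2 was chosen, Mmp2 had 0.166, 0.318, 0.469 and 0.513 CPM in the rescue libraries and 1.81, 2.14, 0.795 and 1.15 in the controls, a log2 difference of -2.07 (SE 0.64). It was -1.47 without control clone 1 and -3.85 on exons alone. Mmp14 was higher, with 52 to 61.1 CPM against 41.2 to 49.6 (0.33 log2, SE 0.15), and Plau lower, with 0.604 to 1.83 against 2.11 to 3.98 (-1.16 log2, SE 0.84). For these 3 of 10 members the libraries did not overlap, against 23.5% of all genes. Mmp2 was chosen by this comparison, so its lack of overlap was fixed in advance and only that of Mmp14 and Plau was not. The Mmp15 difference was 0.68 (SE 0.29), with overlap, and is a description, since Mmp15 was chosen partly on these control libraries.

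Within-gene exon use was tested for each bin against the rest of its gene, a measure that does not use the gene's level. No member bin was called in any of the 4 comparisons by edgeR's diffSpliceDGE, and none had an unadjusted p under 0.05. The 57 member bins tested in METTL3 KO against WT belong to 7 genes, and the smallest p was 0.0672, while 0.0137% of all 101929 bins were called. In the clone comparisons 67 member bins of 7 genes were tested. The smallest p was 0.152 in RBM45 KO against control, 0.334 in KO rescue against RBM45 KO and 0.267 in KO rescue against control, where 0.00285%, 0.000712% and 0.00427% of 140500 bins were called. Mmp2 and Mmp15 could not be tested, because at most 1 bin of each reached a mean of 10 counts. Mmp3 was also untested in the clone comparisons, and Plau in METTL3 KO against WT.

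Wider lists of the same system place the members among their relatives. Of 18 other metalloproteinases, 7 were abundant enough to test. In METTL3 KO against WT 1 rose and 1 fell, against 22.9% of all genes: Mmp19, a secreted enzyme, rose from 4.79 and 9.07 to 13.5 and 18.8 CPM (1.24 log2, adjusted p = 0.00221), and Mmp16, membrane-anchored like Mmp14, fell by 1.35 log2 (adjusted p = 0.00904). Without WT replicate 2 Mmp19 differed by 0.81 (adjusted p = 0.04) and Mmp16 by -0.81 (adjusted p = 0.178), and without METTL3 KO replicate 2 the adjusted p of Mmp16 was 0.0914. In control against WT 2 fell, against 8.99% of all genes. Fewer were called without WT replicate 1 or without control clone 2 replicate 2, as over all genes. Mmp10 (stromelysin 2), the close relative and chromosomal neighbour of Mmp3, had 18 and 4.1 CPM in the WT libraries and 0.992 to 4.57 in the 4 control libraries (-2.46 log2, SE 0.41, adjusted p = 0.000951). Without WT replicate 1 the difference was -1.09 (adjusted p = 0.179). In METTL3 KO it had 4.08 and 5.96 CPM.

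Of 16 other inhibitors and surface regulators, 10 were tested. In METTL3 KO 3 rose and 2 fell, against 22.9% of all genes. Fewer were called with either METTL3 KO library or WT replicate 1 left out, as over all genes. Bsg, which encodes the metalloproteinase inducer basigin, fell by 0.86 log2 (adjusted p = 0.00085), Cd44, a hyaluronan receptor that carries MMP9 and MMP14 at the surface, fell by 0.57 (adjusted p = 0.0201), and the integrin gene Itgb3 rose by 0.69 (adjusted p = 0.0175). Bsg kept its call with either WT library left out. Cd44 lost it without WT replicate 1 (-0.44, adjusted p = 0.15) and without either METTL3 KO library, and Itgb3 lost it without any 1 of the 4 libraries (adjusted p = 0.0531 to 0.107). In control against WT 1 rose (Thbs1, thrombospondin 1, 1.02 log2, adjusted p = 0.00516) and 2 fell, against 8.99% of all genes. Without WT replicate 1 Thbs1 was at 0.66 and lost its call. Fewer of these genes were called without WT replicate 1, either control clone 1 library or control clone 2 replicate 2, as over all genes.

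Of 18 genes around the plasminogen activators, 8 were tested in the comparisons with WT. In METTL3 KO 2 rose and 5 fell, against 22.9% of all genes. Fewer were called without WT replicate 1 or without either METTL3 KO library, as over all genes. Plaur, the receptor that holds urokinase at the surface, had 42.2 and 18.1 CPM in WT and 5.74 and 6.16 in METTL3 KO (-2.30 log2, SE 0.31, adjusted p = 6.71e-05), and the difference was -1.60 without WT replicate 1. Anxa2, a plasminogen-binding annexin, fell by 0.87 (adjusted p = 0.000776). Serpine2, protease nexin 1, an inhibitor of urokinase and thrombin, had 12.4 and 27.5 CPM in WT and 53 and 68.4 in METTL3 KO (1.64 log2, SE 0.27, adjusted p = 0.000516), and 1.14 without WT replicate 2. In control against WT none rose and 4 fell, against 8.99% of all genes. Fewer fell with either WT library, control clone 1 replicate 2 or control clone 2 replicate 2 left out. Over all genes fewer were called without WT replicate 1 and more without WT replicate 2. Serpine2 was among the 4 (-1.80 log2, SE 0.28, adjusted p = 0.000404), with control clone means of 14.3 and 2.1 CPM against 19.9 in WT, and at -1.15 without WT replicate 1 (adjusted p = 0.0248).

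Serpine2 also differed between clones of 1 genotype. It had 13.1 and 15.6 CPM in control clone 1 against 1.69 and 2.51 in control clone 2 (-2.72 log2, SE 0.36, adjusted p = 3.55e-05). In the RBM45 KO clones it had 10 and 15.3 CPM in clone 1 against 1.59 and 2.68 in clone 2 (-2.58 log2, SE 0.38, adjusted p = 0.000103). The 4 rescue libraries held 0.552 to 1.61 CPM. Low Serpine2 and low Plau thus went together in RBM45 KO clone 2 but not in control clone 2, where Plau had 3.98 and 2.11 CPM. Both genes were also lower in all 4 rescue libraries than in any control library. Of all genes in that comparison, 23.5% had no overlap, in either direction. For Serpine2 the gap was narrow, from 1.61 CPM in the highest rescue library to 1.69 in control clone 2. In METTL3 KO they went apart, with the lowest group mean of Plau (0.204 CPM) and the highest of Serpine2 (60.7).

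Of 31 ADAM and ADAMTS proteases, 23 were tested in the fit of 16 libraries. 6 rose and 2 fell in METTL3 KO, against 22.9% of all genes, led by Adam19, a membrane-anchored sheddase (1.78 log2, adjusted p = 0.000108), Adam22, a synaptic receptor without protease activity (1.31, adjusted p = 0.000841) and Adamts2, a procollagen N-proteinase (0.88, adjusted p = 0.0011). These 3 calls held with either WT library left out, and on exons alone Adamts2 was at 0.48 (adjusted p = 0.188). In control against WT 2 rose and 6 fell, against 8.99% of all genes, among them Adamts2 (-0.73 log2, adjusted p = 0.00454; -0.51 without WT replicate 2, adjusted p = 0.102). Fewer were called without WT replicate 1, control clone 1 replicate 2 or control clone 2 replicate 2, and the same held over all genes. Without WT replicate 2 fewer of the list were called too, but more over all genes. In METTL3 KO fewer were called with any single WT or METTL3 KO library left out, also as over all genes. In the 3 clone-level comparisons no gene of the 4 lists was called.

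The genes whose 8 group means were most like a member's were listed by Pearson r of log2 CPM among 8288 genes averaging at least 5 CPM, as a description. For Mmp3 they were Clba1 (0.98), Cxcl1 (0.97) and Pias4 (0.968). For Timp3 the most alike was Syn3 (0.997), which shares its locus, followed by Far1 (0.967). For Timp2 they were Rexo4 (0.985), Tbrg1 (0.982) and Eif3k (0.981), for Timp1 Galk1 (0.98), for Plat Jund (0.953), for Mmp14 Mrpl57 (0.943) and for Mmp11 Igip (0.97). Between members the highest value was that of Timp1 with Timp2 (0.868), and Mmp3 with Mmp11 was the lowest (-0.595). The groups share libraries within a clone and differ in depth.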

How the data were processed

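RNA of 16 libraries was measured as read counts. The deposited tables hold whole-number counts per gene body (introns included), per exon bin and per intron, made by the authors with featureCounts 1.6.3 per the file headers, counting fragments on their own strand, and in every feature that held at least 0.1 of their length. Reads were aligned with HISAT2 2.1.0 to mm10, per the submitters' processing notes. Per the labels' protocols the kit was non-directional, so strand does not separate counts where genes on opposite strands overlap. 1 count column could only be entered under another unit name. The 4 control columns carry names that match no label and were taken by elimination. Symbols came from the Ensembl identifiers (GENCODE M21 on GRCm38; 53167 of 53333 rows named); no per-sample column was left unused.

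Counts were tested with edgeR 4.0.16 (R 4.3.3): TMM scaling, filterByExpr, quasi-likelihood test, Benjamini-Hochberg over all genes, threshold 0.05, no replicate block. Library comparisons fitted 8 groups of 2 (16223 genes, 8 residual df), and the 3 genotype comparisons 6 summed clones (16867 genes, 3 df). Exon bins averaging at least 10 counts were tested with diffSpliceDGE. DESeq2 1.42.0 was an alternative, beside other scalings, no filter, exon sums, single libraries as the spread and leaving libraries out. The fits were tested on simulated data. CPM are counts per 1000000 of the TMM-scaled library size. The members and wider lists were chosen with earlier results of these data known. Named list genes are up to 3 called genes per list and comparison with the smallest p, averaging at least 2 CPM; 1 gene that this rule names is not reported here. Intervals cover counting error only.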

Additional observations from a re-analysis of the deposited data

Results flagged for a closer look

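For 3 results, clones that carry 1 label differed from each other by edgeR's test, and in the first 2 of them both libraries of each clone lay on opposite sides of the mean of the control libraries. Plau in RBM45 KO clone 2 was at -2.64 log2 against clone 1, with 4.77 CPM in the first clone and 0.765 in the second, and 2.44 and 3.04 in the control clones. Plat in KO rescue clone 2 was at -1.34 log2 against clone 1, with 19.8 and 7.83 CPM against 11.3 and 25.5 in the control clones. Timp1 in KO rescue clone 2 was at -0.82 log2 against clone 1, with 56.2 and 31.8 CPM against 38.3 and 25.5 in the control clones; rescue clone 2 (28.4 and 35.3 CPM) thus lay at the control mean of 31.9, and only rescue clone 1 apart from it; of these 12 Timp1 libraries, the control clone 2 pair also had the highest ratio of Syn1 to Timp1 counts (1.519 and 1.715). Among 30 sets of 4 libraries (10 genes in 3 genotypes) no single library lay apart by Dixon's test, which chance would mark in about 1 of 20 sets.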

How the results depend on the processing

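The number of members called in METTL3 KO against WT stayed within 1.5 times the 6 reported under every setting tried. In control against WT, where 2 were called, DESeq2 and exon sums each called 1 (1205 and 1235 genes in all, against 1458). With 1 library left out the number moved up or down, as it did over all genes. Between the control clones, 3 were called and 5 on exon sums (3175 and 2737 genes in all). Between the RBM45 KO clones, 1 was called, 2 without the filter and 2 on exon sums (2294, 2468 and 2051 genes in all). Between the rescue clones, 2 were called, 4 without the filter and 1 on exon sums (371, 632 and 263 genes in all). Fewer were called with any 1 rescue library left out, as over all genes. With single libraries as the spread, 3, 2 and 6 members were called for knockout over control, rescue over knockout and rescue over control. Of 15738 genes tested, 2565, 3058 and 5621 were called. Clones as the unit gave 0, and the spread of single libraries leaves out the difference between clones. The member counts include Mmp15 in the first 2 comparisons and Mmp2 in the last. Any call of Mmp15 or Mmp2 here is a description, since both were chosen on libraries of these comparisons. Mmp3 in METTL3 KO against WT ran from -0.0238 (without WT replicate 2, a change of sign) to 3.07 (without WT replicate 1) when 1 library was left out. Differences that were not called also changed sign: with 1 library left out, Mmp11 in METTL3 KO against WT ran from -0.108 to 0.744 and Plat from -0.47 to 0.18, and in control against WT Mmp14 ran from -0.026 to 0.0503 (-0.00323 with TMM without the most abundant genes), Timp1 from -0.798 to 0.0534 and Timp3 from -0.168 to 0.465. Over all genes, 3721 were called in METTL3 KO against WT and 1747 to 3304 with 1 library left out, and 1458 in control against WT and 435 to 2123. Of the named list genes, 8 of 11 kept their call in METTL3 KO against WT with either WT library left out, and 1 of 10 (Serpine2) in control against WT. No member exon bin was called under any setting.

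Replicate numbers did not mark paired samples: over 28 pairs of groups the correlation of same-numbered deviations ran from -0.306 to 0.489. With a replicate block 7, 3, 4, 1 and 2 members were called in METTL3 KO against WT, control against WT, and the control, RBM45 KO and rescue clones against each other; the added calls were Mmp3, Mmp15 and Timp1. Mmp2, Mmp15 and Plau rest on few counts in most groups, and their folds there are the least precise.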
